A study of Drosophila melanogaster with 48 samples.

Results

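Gene-end regions of open chromatin are described here: stretches on the autosome arms 2L, 2R, 3L and 3R of Drosophila that lay beside a protein-coding gene end and were found in all 10 peak lists of the study. They were chosen by measured values. A region of the HA-Twi titration list was taken when it overlapped each of the other 9 lists by at least 1 bp, was under 600 bp wide, and had its strongest summit within 500 bp of either end of a protein-coding gene (dm6). Of 25397 regions in that list, 20397 lay on the 4 arms, 14405 of these were found in all 9 other lists, 13794 of these were under 600 bp, and 6866 of these met the distance limit. The remaining 6928 regions, found in all lists and under 600 bp but farther than 500 bp from a gene end, are called distal and are used for comparison.

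The study measured open chromatin by ATAC-seq, an assay that marks accessible DNA with a transposase, in S2 cells, a Drosophila culture line that resembles hemocytes, the blood cells of insects. It holds 48 libraries in 24 groups of 2, all harvested at 48 h of the CuSO4 treatment that induces the transgenes, which for the groups at 0 uM means no CuSO4. The main lists each pool wild-type S2 cells with cells of a transgenic line, both at the same dose. These lines express Grainyhead (Grh, 100 uM), Zelda (Zld, 1000 uM) or Twist (Twi, 40 uM). Other lines express only a DNA-binding domain (DBD), that of Grh (20 uM) or that of Zld (100 uM). The titration lists pool cells of a single line over all doses: Grh cells at 0, 25, 100 and 400 uM, Zld cells at 0, 500, 1000 and 1500 uM, and cells with HA-tagged Twi at 0, 10, 40 and 160 uM. Titration libraries of the DBD lines received 80 uM (Grh DBD) or 400 uM (Zld DBD), and their labels name no list. All groups share the S2 background. Doses stand in the labels of libraries, not of lists. By these doses, the main lists and the full-length titration lists all include libraries with copper. The sources used here do not say whether each line is a clone. Because each list pools its libraries, no list gives a value per library, replicate error cannot be had, and no difference below was tested. Depth is unknown, and the exact binomial 95% intervals given cover counting over regions only, which are not replicates.

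The ends of an active gene are places where chromatin is often open. At a promoter, the start of a gene, nucleosomes are displaced by the transcription machinery and by bound factors, and the nucleosomes next to this gap tend to stand at regular intervals into the gene. In Drosophila, genes used in every cell (housekeeping genes) tend to have compact promoters with the regulatory sequence close to the start, while developmental genes draw on enhancers that can lie far away. The gene table used here gives the 2 ends of each gene but not its strand, so a start and a 3' end could not be told apart.

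Gene-end regions were narrow. The narrowest was 64 bp, the median 169 bp (quartiles 133 and 231 bp) and the widest 599 bp. Distal regions had a median of 231 bp (quartiles 156 and 346 bp). The most frequent width class among gene-end regions was 125 to 149 bp, with 16.9% of them, followed by 150 to 174 bp with 16.5%. The same classes held 8.80% and 8.76% of distal regions, which were spread more evenly over the range. The width limit is part of the selection: of 611 autosomal regions left out for being 600 bp or wider, 130 lay near a gene end and 481 were distal.

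**Figure D1:**
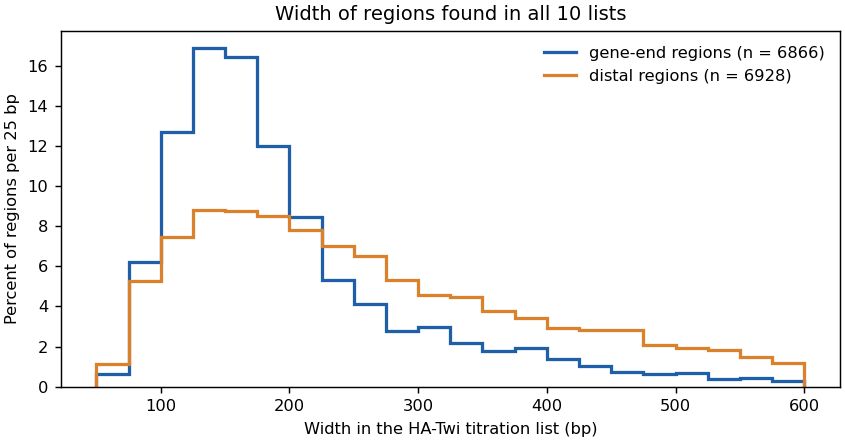
Width of regions in the HA-Twi titration list (x axis, bp, classes of 25 bp) against the percent of regions in each class (y axis), for gene-end regions (blue) and distal regions (orange). Gene-end regions peak at 125 to 149 bp with 16.9%, while no class of distal regions exceeds 8.80%.

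The widest gene-end regions stood at CG9932 (2L:13060024-13060622, 599 bp, summit 118 bp outside the gene) and at Polr1D, which encodes a subunit of RNA polymerases I and III (2L:19134931-19135529, 599 bp, 104 bp inside). The next were at CG32320 (598 bp) and Idgf3, an imaginal disc growth factor gene (590 bp). These 4 held 2 or 3 summits each. The narrowest were 64 bp at Nep2, a neprilysin-like peptidase gene, 64 bp at Afg3l2, a mitochondrial protease gene, 64 bp at mon2, and 65 bp at CycJ, a cyclin gene. These narrow regions were wider in other lists. The Nep2 region reached 372 bp and the Afg3l2 region 473 bp in their widest list. Just outside the width limit lay regions of 600 bp at Oscillin and AOX3.

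Most gene-end regions had a single summit, the position of highest signal that the peak caller reports. In the HA-Twi titration list, 6083 (88.6%) had 1 summit, 676 had 2, 97 had 3, 9 had 4 and 1 had 5. Several summits were thus present in 783 of 6866 regions (11.4%, 10.7 to 12.2), against 1924 of 6928 distal regions (27.8%, 26.7 to 28.8). Where there were several, neighbouring summits stood a median of 150 bp apart (quartiles 103 and 217 bp, 901 intervals) at gene ends and 142 bp apart in distal regions (2385 intervals). The region with 5 summits lay at nolo (2L:21683598-21684073, 476 bp). The next, with 4 summits each, lay at CG8243 (2R:8922676-8923240), at Pde6, a phosphodiesterase gene (3R:14557881-14558439), and at RabX1, a Rab GTPase gene (2R:23523249-23523656). The share with several summits depended on the list, and 11.4% was the lowest. In the other lists that give summits, the regions over these gene-end regions had several in 12.6% (Grh titration) to 24.8% (Twi).

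Summits stood at nearly the same base in separate lists. Over the 8 lists that give summits, the strongest summits over a gene-end region spanned a median of 16 bp (quartiles 9 and 30 bp), against 31 bp (16 and 84 bp) over distal regions. All 8 lay within 10 bp of each other in 2057 gene-end regions (30.0%), within 25 bp in 4864 (70.8%) and within 50 bp in 5764 (83.9%, 83.1 to 84.8). In distal regions the share within 50 bp was 62.8% (61.6 to 63.9). The number of summits moves with this measure. Among regions with 1 summit the share within 50 bp was 88.5% at gene ends and 71.4% distally, and among those with several it was 48.3% and 40.3%. Gene-end regions were also narrower than distal ones (medians of 169 and 231 bp) and stronger. The part of width and strength in the smaller span at gene ends was not tested. The median shift from the HA-Twi titration summit to that of another list was between 3 bp (both other full-length titrations) and 6 bp (both main DBD lists). The region at lab was among the tightest, with all summits within 2 bp, while those of the region at mon2 spanned 212 bp.

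The summits were not spread evenly around gene ends. The largest group, 2511 regions (36.6%), had the strongest summit 0 to 49 bp outside the nearest gene. A further 877 (12.8%) stood 1 to 99 bp inside. In steps of 20 bp, the count was highest at 0 to 20 bp outside with 1212 regions, fell to 32 regions at 60 to 80 bp inside, and rose again to 235 at 240 to 260 bp inside. It fell to 35 at 320 to 340 bp inside and had another, smaller rise to 94 at 440 to 460 bp inside. Outside genes, 200 to 500 bp held 691 regions (10.1%) in all. Similar shares stood in every list with summits when read at these same regions. The selection demanded an overlap with each list, so this similarity was largely built in. Between 8.96% (Twi) and 10.6% (HA-Twi titration) of the summits lay 200 to 300 bp inside, and between 59.9% and 61.4% lay within 100 bp of the end on either side.

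**Figure D2:**
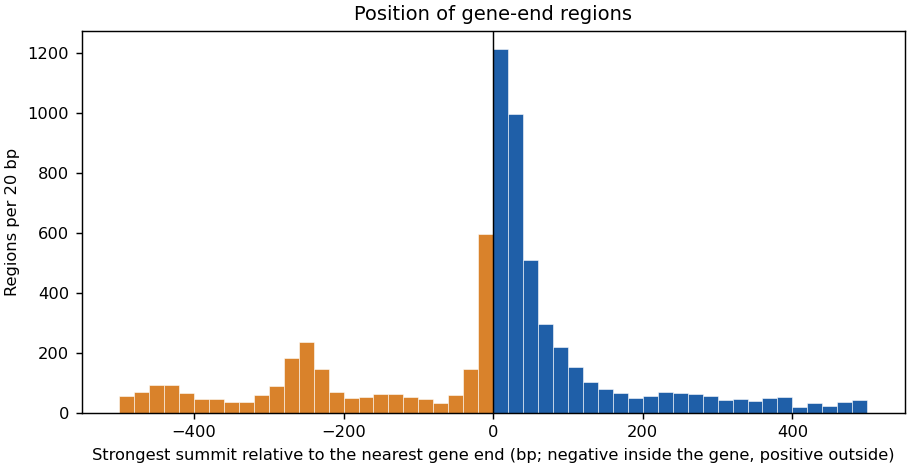
Position of the strongest summit relative to the nearest end of a protein-coding gene (x axis, bp, negative inside the gene and positive outside) against the number of gene-end regions per 20 bp (y axis). The highest bar is 1212 regions at 0 to 20 bp outside, and 235 regions stand at 240 to 260 bp inside.

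Regions differed with their position. Those 0 to 49 bp outside had a median width of 167 bp and a median fold enrichment of 11.3, and 5.69% of them had several summits. Fold enrichment is the authors' own value per peak, the signal at the peak over the background that the peak caller expects; without another name it is that of the HA-Twi titration list. Those 50 to under 200 bp outside (1174 regions) were wider, with a median of 220.5 bp, and about as strong, with a median fold enrichment of 11.0. Those 200 to 300 bp inside (727 regions, 10.6%) were narrower and weaker, at 144 bp and 7.44, and 14.2% of them had several summits. Farther inside, up to 500 bp, stood 604 regions with a median width of 180 bp, and at 200 to 500 bp outside the medians were 185 bp and 7.39.

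Most regions 200 to 300 bp or 400 to 500 bp inside a gene came with another near the gene end itself. Of the 727 regions 200 to 300 bp inside, 494 (68.0%) had a second gene-end region within 100 bp of the same end. Of the 380 at 400 to 500 bp inside, 256 (67.4%) did. Of the 282 at 100 to under 200 bp inside, 19 (6.74%) did. Regions that touch are joined by the peak caller, so close pairs cannot appear as separate regions. This low share is therefore no measure of what to compare the others with. The share among all gene ends with a region was not counted, nor that for regions 200 to 500 bp outside. Whether 68.0% and 67.4% are higher than at other gene ends was not tested. In all, 5629 gene ends had a region as their nearest, of which 4483 had 1, 1055 (18.7%) had 2 and 91 had 3. The 2 regions of an end stood a median of 308 bp apart (quartiles 269 and 426 bp, from 190 to 817 bp). Neighbouring gene-end regions in general were most often 250 to 299 bp apart, with 664 pairs, against 296 pairs at 300 to 349 bp. Distal neighbours showed no such class: their counts were 161 and 160 pairs at these distances and highest, at 182, between 400 and 449 bp. The comparison is not like for like. The selection confined gene-end regions to 500 bp around an end, which limits their spacing, while distal regions had no such bound and were wider.

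**Figure D3:**
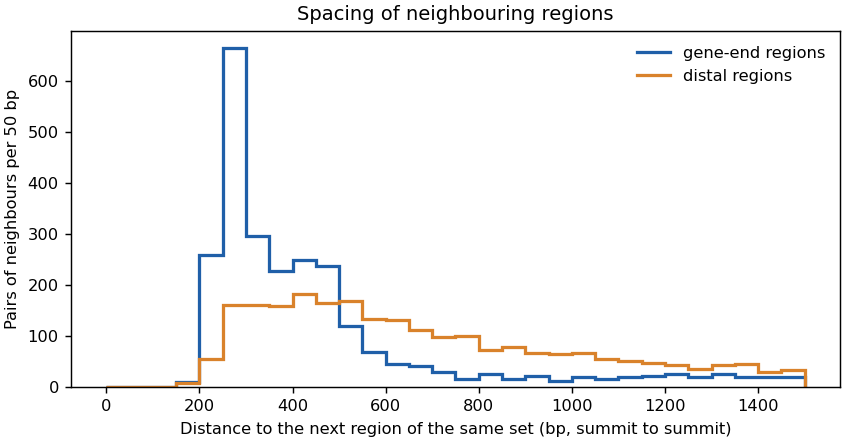
Distance between neighbouring summits of the same set (x axis, bp) against the number of neighbour pairs per 50 bp (y axis), for gene-end regions (blue) and distal regions (orange), shown up to 1500 bp. Gene-end regions have 664 pairs at 250 to 299 bp, while the distal counts stay at or below 182. The selection confined gene-end regions, but not distal ones, to 500 bp around a gene end.

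The 4 gene ends with 3 regions whose best region ranked highest show the arrangement. At Cnx99A, the gene of the chaperone calnexin, a region at 3R:29319554-29319735 had its summit 12 bp inside the gene and a fold enrichment of 47.8, and 2 weaker regions followed 273 bp (3.73) and 455 bp inside (3.58). At dco, a casein kinase gene, the strongest region lay 332 bp inside (3R:31060781-31060986, 28.3), with weaker ones 14 bp inside (4.50) and 246 bp outside (3.13). At sm, an RNA-binding protein gene, the strongest lay 477 bp outside (2R:19631824-19632157, 43.8), with others 33 bp outside (8.77) and 291 bp inside (4.31). At Gp150, a membrane glycoprotein gene, it lay 464 bp inside (2R:22317995-22318415, 34.6), with others 16 bp (5.25) and 308 bp outside (8.48). The strongest of the 3 was therefore not always the one at the gene end.

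In relation to genes as a whole, 3054 strongest summits (44.5%) lay inside a gene, 2153 (31.4%) lay between the ends of 2 neighbouring genes that were both within reach, and 1659 (24.2%) lay beside a single gene end. The gap between the 2 genes had a median of 289 bp. Regions beside a single end were the widest of these, with a median of 198 bp, against 166 bp between 2 ends and 158 bp inside genes. A summit outside its nearest gene can lie inside another, and counts here as inside a gene. A single gene lay within 500 bp of 3319 regions, 2 genes lay within it for 3321 (48.4%), 3 genes for 214 and more for 12. A count of genes therefore includes genes that share a region with a neighbour. Of 3981 genes of at least 2000 bp with a gene-end region, 3240 (81.4%) had regions at 1 end only and 741 (18.6%) at both.

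The strongest regions between 2 gene ends illustrate such sharing. Between CG6287 and Ca-beta, a calcium channel subunit gene, a region of 505 bp (2L:11155454-11155958) filled a gap of 396 bp, and its fold enrichment was 19.5 in its lowest list (Grh), 33.7 at the median of the 10 lists and 40.9 in its highest (HA-Twi titration). Between GstE12, a glutathione S-transferase gene, and Eps-15, an endocytosis gene, a region of 495 bp with 3 summits (2R:24767934-24768428) had values of 20.1, 32.7 and 38.8. Between AOX1 and AOX2, which encode aldehyde oxidases, a region of 500 bp (3R:15537156-15537655) had values of 17.9, 27.7 and 43.4. All 3 regions were wider than the gap between their genes.

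Strength was described over all lists. The gene-end regions had a median fold enrichment of 9.65 in the HA-Twi titration list (quartiles 5.89 and 15.7, from 1.41 to 60.2), against 6.58 in distal regions (3.99 and 11.5, up to 119). In each of the 10 lists the median of gene-end regions was above that of distal regions and above that of all autosomal regions. The medians of gene-end regions were 5.26 in the Grh list, 8.02 in the Zld list and 5.10 in the Twi list. They were 8.34 in the Grh titration and 8.07 in the Zld titration list, and 5.35 and 4.76 in the main lists of the Grh and Zld DBD. In the DBD titration lists they were 5.88 (Grh) and 5.65 (Zld). Lists differ in pooled libraries and in length, from 20397 to 64164 autosomal regions, so these levels do not compare openness between lists. Presence in all lists was itself part of the selection: of autosomal regions under 600 bp, 6866 of 8908 near a gene end were in all lists (77.1%, 76.2 to 77.9), against 6928 of 10869 distal ones (63.7%, 62.8 to 64.6). Those near a gene end but not in all lists were weak, with a median of 2.90.

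**Figure D4:**
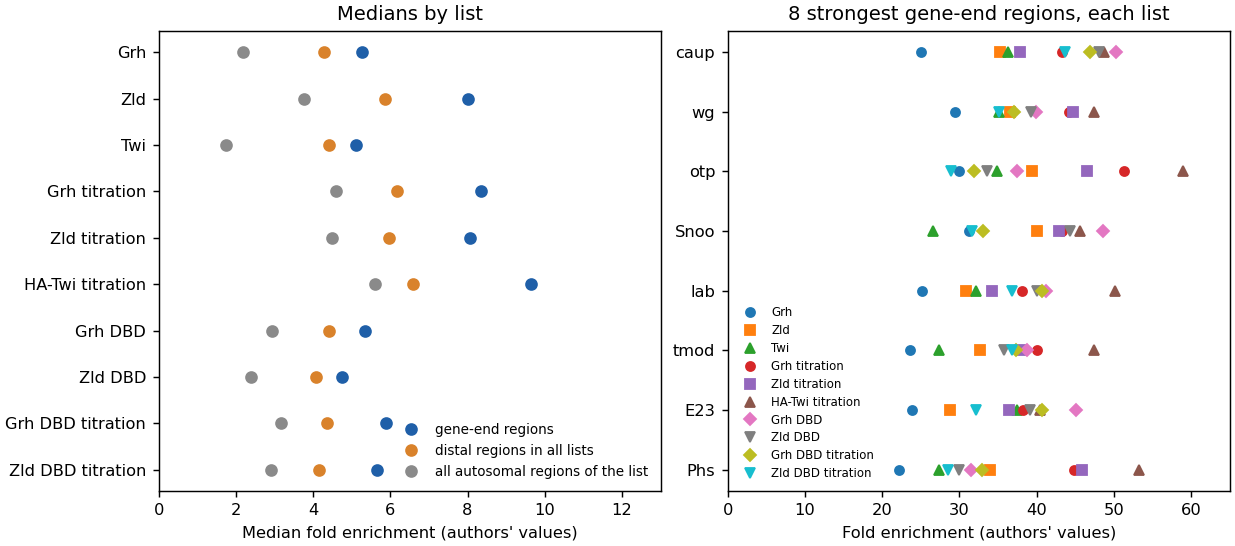
Left, median deposited fold enrichment (x axis, a ratio) in each of the 10 lists (y axis) for gene-end regions (blue), distal regions in all lists (orange) and all autosomal regions (grey). Right, the fold enrichment of the 8 strongest gene-end regions (y axis, by nearest gene) in each list, where all values lie between 22.2 (Phs) and 59.0 (otp).

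The regions kept a similar order of strength from list to list. Across the 6866 regions, Spearman's rho of fold enrichment was lowest between the Twi and HA-Twi titration lists, at 0.79, and highest between the 2 DBD titration lists, at 0.943. These are descriptions across regions, which share the libraries of each list and the sequence composition of each region. A region's highest value over the 10 lists was a median of 2.45 times its lowest (quartiles 2.02 and 2.92). Wider regions were stronger, with a rho of 0.521 between width and fold enrichment (0.564 distally). Width and strength come from the same call on the same signal, so they are not separate measures. The rho between distance to the gene end and fold enrichment was weaker, at -0.15. By position, the median fold enrichment was 11.3 at 0 to 49 bp outside, 7.44 at 200 to 300 bp inside and 7.39 at 200 to 500 bp outside.

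By mean rank of fold enrichment over the 10 lists, the 1717 strongest regions had a median width of 225 bp and a median fold enrichment of 21.3, and the 1716 weakest 127 bp and 4.46. Of these strongest, 66.6% lay within 100 bp of a gene end and 6.93% lay 200 to 300 bp inside. Of the weakest, 43.1% and 18.1% did. The 100 strongest regions differed from the main body: their median width was 327 bp, 78 had the summit outside the gene, and it stood a median of 83.5 bp outward, against 16 bp over all gene-end regions.

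The strongest region of all lay 164 bp outside caup, a homeobox gene of the Iroquois complex (3L:12609310-12609663, 354 bp). Its fold enrichment was 25.1 in its lowest list (Grh), 43.5 at the median of the 10 lists and 50.3 in its highest (Grh DBD). Next came wg, which encodes a Wnt ligand, with a region 165 bp outside (2L:7306829-7307198) and values of 29.5, 38.2 and 47.4. The region of otp, a homeobox gene, lay 280 bp outside (2R:20903500-20903806), with values of 28.9, 36.1 and 59.0, and that of Snoo, a Ski-family co-repressor gene, 83 bp outside (2L:7984078-7984407), with 26.6, 41.5 and 48.6. All 4 were chosen as the highest by mean rank of these values. The Hox gene lab had a region 84 bp outside (3R:6678550-6678810) with values of 25.2, 37.4 and 50.2. The other 3 of the 8 strongest were at tmod, which caps actin filaments (3R:30532268-30532627, median of the lists 37.1), E23, an ABC transporter gene (2L:3354717-3355021, 37.8), and Phs (3L:15619692-15620038, 32.2). Each of these 8 regions had 1 summit and lay outside the nearest gene, and the Grh list gave the lowest value for 6 of them. The summits at Snoo and Phs lay inside another gene.

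At the weak end, 2 regions lay at Pak, the gene of a p21-activated kinase. They stood 463 bp inside (3R:6351306-6351395) and 6 bp outside (3R:6350857-6350926), with list medians of 1.86 and 1.84. Between CSN8, a COP9 signalosome subunit gene, and Pp2A-29B, a region of 94 bp had a median of 1.89, and a region 263 bp inside CG4822 had 1.70. Over all lists, the values of these 4 regions lay between 1.41 and 2.76. At the distance limit, regions at Ugt303B2 and CG10479 stood 500 bp from the gene with fold enrichments of 23.3 and 6.30, and those just beyond, at CG31523 and CG4911, stood 501 bp away with 9.25 and 7.29.

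The kinds of genes were then counted. Of 11645 protein-coding genes on the 4 arms, 6466 (55.5%) had a gene-end region within 500 bp of an end, and 39.1% had one within 100 bp. This share is the background for every family below, and families count only genes on the 4 arms. Genes with a region were longer, with a median of 2608.5 bp against 1562 bp for the 5179 genes without. The lists of families were chosen with earlier results of these data known, and their shares are described beside the background without a test. Where a gene had several regions, the strongest is given. A region given for a family gene can lie nearer to another gene.

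Genes of the protein-making and protein-degrading machinery stood far above the background. Cytosolic ribosomal protein genes had a region in 67 of 71 cases (94.4%, 86.2 to 98.4), and mitochondrial ribosomal protein genes in 57 of 62 (91.9%). Aminoacyl-tRNA synthetases, which charge tRNAs, numbered 27 of 30 (without one were AspRS, CysRS-m and GluRS-m) and translation initiation factors 31 of 36. All 6 autosomal genes of the chaperonin CCT, which folds actin and tubulin, had a region. Of proteasome subunits 25 of 28 did (not Prosalpha1, Rpn6 and Rpn8). The regions at these genes were of ordinary width and lay close to the end. For the cytosolic ribosomal proteins the median width was 189 bp, against 183 bp over all genes with a region, the median position was 35 bp outside, and 61 of the 71 genes had a region within 100 bp of an end. RpL15 had a region 31 bp outside (3L:27267093-27267321, 229 bp) with a fold enrichment of 16.5 in its lowest list, 23.2 at the median and 33.4 in its highest. mRpL48 had one 22 bp outside (2L:1710327-1710544) with values of 11.6, 16.1 and 39.4, and Rpt5, an ATPase of the proteasome cap, one 39 bp outside (3R:23752772-23752945; 10.7, 15.9 and 31.0). The gene nearest to the mRpL48 region was CG17660 (19 bp), and the gene nearest to the Rpt5 region was RanBP3 (3 bp).

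Genes of transcription, replication and nuclear transport stood similarly high. All 22 autosomal Mediator genes, which link activators to RNA polymerase II, had a region. So did all 14 autosomal genes of small nuclear ribonucleoproteins, which splice. All 10 autosomal genes of the MCM and ORC complexes, which license replication origins, also had one. Of subunits of RNA polymerase II and general factors, 28 of 31 had one; Taf12L, TfIIFalpha and TfIIA-L did not. Of nucleoporins, 15 of 17 did (not Nup58 and Nup133). The region of MED20 lay 170 bp outside (2L:8071532-8071760) with a list median of 15.9, that of Taf1, the largest subunit of TFIID, 24 bp outside (3R:6646727-6646963, 15.1), and that of Orc5 16 bp outside (2L:13829647-13829910, 10.1). The MED20 region was nearer to poe, with its summit 18 bp outside that gene. Exocyst and COPII genes, which serve membrane traffic, numbered 12 of 13 (not Exo70). Respiratory complex I genes numbered 23 of 30 and ATP synthase genes 10 of 13, where the 3 without a region were ATPsynGL, ATPsynCF6L and ATPsynepsilonL. Vacuolar ATPase genes, at 20 of 31 (64.5%, 45.4 to 80.8), had an interval that included the background, as did the smaller ATP synthase family (lower bound 46.2%) and CCT family (lower bound 54.1%).

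The 15 housekeeping families together had a region in 367 of 414 genes (88.6%, 85.2 to 91.5), and in 305 (73.7%) within 100 bp of an end. In strength they were ordinary. Of the strongest regions of these 367 genes, 34.6% were among the 1717 strongest of all, against 36.2% over all genes with a region, and the median fold enrichment was 13.4 against 12.7. The list of these families as a group, like the next, was put together after the family counts were seen.

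Genes used in few cell types were mostly without a gene-end region. In 9 such families together, 42 of 423 genes had one (9.93%, 7.25 to 13.2), and 7 (1.65%) had one within 100 bp of an end. The median gene length was 1308 bp in this group and 1401.5 bp in the housekeeping group, with families as different as 515 bp (seminal fluid proteins) and 32525.5 bp (dpr and DIP), and the part of gene length in these shares was not tested. Odorant receptors numbered 5 of 51, gustatory receptors 8 of 54, ionotropic receptors 4 of 49 and odorant-binding proteins 5 of 45. Cuticle proteins numbered 11 of 114 (9.65%, 4.92 to 16.6), seminal fluid and accessory gland proteins 3 of 45, the digestive Jonah proteases 4 of 16, and the neuronal surface receptors of the dpr and DIP families 2 of 26. None of the 23 Osiris genes, a cluster used in epithelia that form cuticle, had one, which allows a share of up to 14.8% (exact 95% interval). Where present, the strongest region stood a median of 243 bp outside the gene, against 33 bp in the housekeeping group. That of Or46a stood 251 bp outside (2R:10142219-10142601, list median 10.1) and that of Or47a 436 bp outside (2R:11252272-11252417, 5.51). That of Obp28a stood 476 bp outside (2L:7496178-7496525, 5.72) and that of Lcp9, a larval cuticle gene, 461 bp outside (2R:24780792-24780988, 10.5). Some stood nearer, such as those of DIP-epsilon (34 bp outside, 8.15) and Jon25Biii (92 bp outside, 3.86).

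Detoxifying enzymes stood in between. Cytochrome P450 genes had a region in 32 of 69 cases (46.4%, 34.3 to 58.8) and glutathione S-transferase genes in 24 of 33 (72.7%, 54.5 to 86.7), and both intervals include the background. Their strongest regions were wide, with medians of 267 and 252 bp against 183 bp over all genes with a region. Cyp9c1 had a region 54 bp outside (2R:24630893-24631200, 308 bp) with values of 12.3, 22.4 and 38.8 in its lowest, median and highest list.

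**Figure D5:**
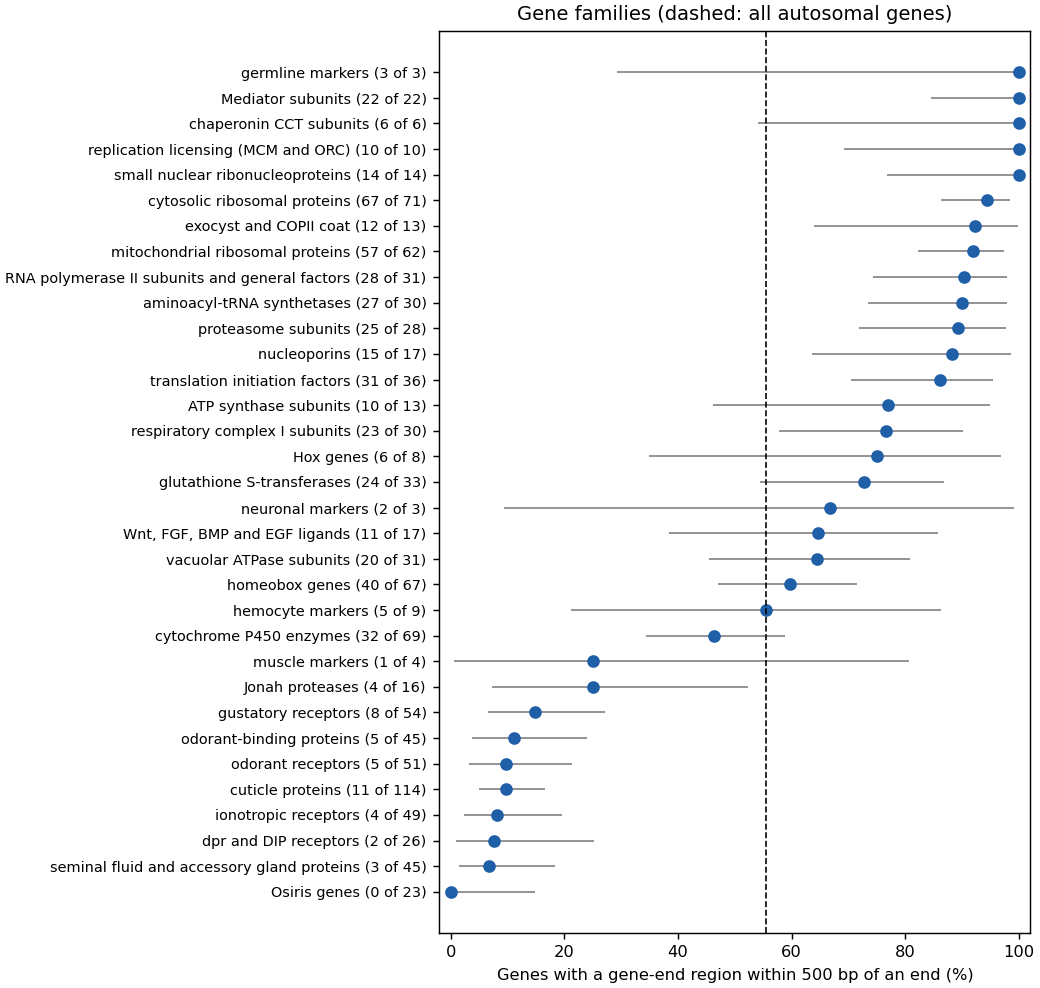
Percent of the genes of each family with a gene-end region within 500 bp of an end (x axis), with exact 95% binomial intervals (grey lines) and counts beside the family names (y axis); the dashed line marks the 55.5% of all autosomal protein-coding genes. Housekeeping complexes lie at 64.5% or above, and the sensory receptor families at 14.8% or below.

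Developmental genes were counted in a list of homeobox genes and a list of ligands. Both were added after the strongest regions had been seen, so the choice itself bears on their strength, which supports nothing and is given as a description. Homeobox genes, which encode transcription factors of body pattern, had a region in 40 of 67 cases (59.7%, 47.0 to 71.5), close to the background of 55.5%. For 29 of these 40 the strongest region was among the 1717 strongest of all, against 36.2% over all genes with a region. Their median width was 285 bp and their median fold enrichment 30.2. The median position was 161 bp outside, and 9 of the 67 genes had a region within 100 bp of an end. Of the 8 Hox genes 6 had a region; Antp and Abd-B did not. The region of abd-A lay 154 bp outside (3R:16830056-16830369) with values of 24.8, 33.6 and 44.6, and that of Dfd 250 bp outside (3R:6791477-6791893) with 15.6, 17.7 and 40.7. Ligands of the Wnt, FGF, BMP and EGF families numbered 11 of 17. Besides wg, the FGF gene bnl had a strong region 124 bp outside (3R:19836703-19837119; 22.9, 34.0 and 44.3).

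Markers of cell types were examined last. Of 9 autosomal hemocyte markers, 5 had a gene-end region (55.6%), close to the background. These were the phagocytic receptor genes crq and eater, the clotting gene Hml, the peroxidasin gene Pxn and the GATA factor gene srp. The region of crq lay 9 bp outside (2L:452918-453206) with values of 11.2, 13.6 and 20.4, and that of eater 164 bp outside (3R:27099660-27099970) with 7.40, 11.8 and 25.6. The collagen genes Col4a1 and vkg had regions of all lists over the gene (2 and 5) but none at an end, and NimC1 and He had none in all lists. At the list median, Hml stood at 4.72 and Pxn at 3.81, and the strongest of the 2 regions of srp had a fold enrichment of 4.33 in the HA-Twi titration list. Among markers of other cell types, the neuronal genes Syt1 and brp had regions of 3.73 and 4.30 at the list median, near those of Hml and Pxn, and nSyb had none. Of muscle genes, Mef2 had a region (5.89) and Mhc, Act57B and sls had none. The germline genes nanos, bam and vas each had one (10.6, 4.72 and 2.71). The epidermal gene kkv had none. Expression was not measured in these lists. The endogenous genes of 2 of the factors, grh and twi, had 2 and 3 regions of all lists over the gene but none at an end. The copper-inducible metallothionein gene MtnA had one 201 bp outside, which was nearer to CG8500 (82 bp). The fold enrichment of this region was 18.6 in its lowest list (Zld) and 39.2 in its highest (HA-Twi titration).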

How the data were processed

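The data are 10 ATAC-seq peak lists (narrowPeak, dm6) of S2 cells; per the submitters' processing notes, the authors used Bowtie2, MACS2, featureCounts, DESeq2 and deepTools 3.5.1, and the sources used here give neither settings nor any shift of reads for the transposase. Each list was called by the authors on pooled libraries. Each peak has, in the deposited lists, the signal as a fold over background (a ratio, called fold enrichment), a −log10 q (at least 1.30) and a summit offset (another number, in bp); depth is unknown. Both lists of the DBD titrations consist of 200 bp windows without summits. The midpoint was used there and for 33 rows without a summit elsewhere.

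Rows that carry the same peak number were merged, and the summit of the strongest row was kept. Where a region of another list covered several members, its highest value was given to each; this held in at least 1 list for 519 of 6866 regions. Summit distance was measured to the nearer end of protein-coding genes in a RefSeq table of Release 6 (17872 genes, 13962 protein-coding, 11645 on the 4 arms). That table has no strand and no sequence, so the planned shares of 5' ends and of promoter motifs were not run and no sequence is printed. Intervals are exact (Clopper-Pearson) at 95%.

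The members and gene lists were chosen with earlier results of these data known. Of 33 families, 2 (homeobox genes and ligands) were added after the strongest regions were seen. Regions were named by a rule: the 8 strongest and 4 weakest by mean rank, the 4 widest, narrowest and richest in summits, the nearest to each limit, at most 4 genes per family, and the 3 strongest gene pairs; the 4 gene ends with 3 regions were added later. Scripts were tested on simulated data. Alternatives were another distance, width limit, overlap, base list or −log10 q of at least 10, and leaving out the DBD titration lists. Software was matplotlib 3.10.9, scipy 1.17.1, pandas 2.3.3 and numpy 2.4.6 under Python 3.11.15.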

Additional observations from a re-analysis of the deposited data

How the results depend on the processing

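The number of gene-end regions stayed between 4851 (distance limit of 200 bp) and 8245 (1000 bp), against 6866. Beyond its interval, the median fold enrichment moved from 9.65 to 10.7 at 200 bp, 9.25 at 1000 bp, 11.6 at a −log10 q of at least 10, 9.36 without the DBD titration lists, 7.89 and 8.25 with the Zld and Grh titration lists as base (whose own values are then used), and 9.33 under 400 bp. The median width of 169 bp moved to 174 bp at 1000 bp, 179 bp at the stricter q, 162 bp with the Grh titration list as base and 165 bp under 400 bp. The percent of genes with a region moved from 55.5 to 46.4 at 200 bp, 61.2 at 1000 bp, 50.02 at the stricter q and 53.4 under 400 bp. The percent with several summits moved from 11.4 to 8.95 at 200 bp, 13.2 at 1000 bp, 10.6 at the stricter q, 14.8 with the Zld titration list as base, 7.49 under 400 bp and 13.02 with no width limit. The percent of regions 200 to 300 bp inside, 10.6, became 8.82 at 1000 bp, 8.41 at the stricter q and 9.73 with the Zld titration list as base. The percent within 100 bp of an end, 60.04, became 84.97 at 200 bp, 49.99 at 1000 bp, 65.07 at the stricter q and 61.3 under 400 bp. Demanding an overlap of 50% of the shorter region moved none of these beyond its interval. No paired analysis was possible because each list pools its libraries; for the same reason no replicate could be left out. The shares of 5' ends and of promoter motifs were not run. Unknown depth limits every statement on weak regions.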

Other observations

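Regions that met the selection except for 1 list numbered 499 near gene ends and 880 distally. Near gene ends, the missing list was most often that of the Zld DBD (100 regions), the Grh DBD titration (89) or the Grh DBD (78), and least often Twi (4) or Zld (9). Distally it was most often the Grh titration or the Grh DBD titration (173 each). The Twi list is the longest, with 64164 autosomal regions.

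Autosomal regions near a gene end that were not in all lists, or were too wide, stood elsewhere around the end. Of these 2172 regions, 26.8% had the summit 200 to 300 bp inside the gene and 12.1% had it 0 to 49 bp outside, against 10.6% and 36.6% of the gene-end regions of all lists. Those under the width limit were also weaker, with a median fold enrichment of 2.90 against 9.65, and the part of strength in the difference of position was not tested.

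Genes that do not encode proteins were not part of the selection. A gene-end region lay within 500 bp of an end of 63 of 266 tRNA genes (23.7%), 8 of 30 snRNA genes, 24 of 237 snoRNA genes, 19 of 200 miRNA genes and 136 of 1704 lncRNA genes (7.98%). Antisense RNA genes numbered 159 of 423 (37.6%); whether they share these ends with protein-coding genes was not tested.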
